A study of Mus musculus with 11 samples.

Results

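Coenzyme A (CoA) is made from pantothenate, vitamin B5, and taken apart again by a small set of enzymes, and transcripts of 9 genes of this set were followed in mouse liver. They were picked by symbol from the 36788 gene identifiers of the table, with the FSH and saline values of these same livers in view. Their differences between the groups are therefore given below as descriptions, without a p-value for any of the 9. How many of them the fit over all genes called is given only beside the call over all genes. The list holds Pank1, Pank2, Pank3, Ppcs, Ppcdc and Coasy for synthesis, and Nudt7, Nudt19 and Vnn1 for breakdown. All 9 had a row in the table, and all 9 passed a filter of a mean of at least 0.5 CPM (reads of a gene per 1000000 reads of the library), which left 12733 genes for testing.

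The livers came from adult female mice of genotype WT C57BL/6, aged over 12 weeks. Every mouse had been ovariectomized (OVX), a surgical model of ovarian hormone loss, and was fed a high-fat diet. One group of 5 received follicle-stimulating hormone (FSH), the pituitary hormone that acts on the ovary, in daily injections of a recombinant preparation, and the other group of 6 received saline. Neither group had ovaries, so the comparison sets FSH against saline in the absence of the ovary. Libraries carried the numbers 1, 2, 3, 4 and 6 in the FSH group and 1 to 6 in the saline group. No time of collection, batch, cage or litter is given for them in the sources used here. A p-value sets the difference between the groups against the spread of livers inside them. Any such factor that followed the groups cannot be told apart from FSH.

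Pantothenate kinases (PANK) start the pathway by phosphorylating pantothenate, the step that limits the rate of CoA synthesis and is held back by CoA and its acyl esters. PPCS then joins cysteine to the product, PPCDC removes a carboxyl group, and the bifunctional enzyme COASY completes the molecule. In the opposite direction the Nudix hydrolases NUDT7 and NUDT19 cut CoA inside peroxisomes, and the ectoenzyme vanin-1 (VNN1) splits pantetheine to give back pantothenate. Liver uses CoA to carry the acyl groups of fatty acid oxidation, ketone body formation, and fatty acid and sterol synthesis.

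On the GRCm38 (mm10) assembly the genes for synthesis lie at chr19:34806940-34879455 (Pank1, minus strand), chr2:131262495-131299188 (Pank2, plus), chr11:35769484-35791285 (Pank3, plus), chr4:119418530-119422420 (Ppcs, minus), chr9:57385095-57440124 (Ppcdc, minus) and chr11:101082565-101086619 (Coasy, plus). Nudt7 lies at chr8:114133557-114154739 on the plus strand, Nudt19 at chr7:35547185-35556304 on the minus strand, and Vnn1 at chr10:23894688-23905343 on the plus strand. Each of the 3 kinase genes carries a microRNA gene in an intron, on its own strand. Mir107 lies in Pank1 at chr19:34820687-34820773, Mir103-2 in Pank2 at chr2:131288052-131288137, and Mir103-1 in Pank3 at chr11:35782396-35782481. The mature forms, from RefSeq on GRCm38.p6, are shown because they make this shared gene structure visible, with the seed (bases 2 to 8) in capitals.
mmu-miR-107-3p: aGCAGCAUuguacagggcuauca
mmu-miR-103-3p: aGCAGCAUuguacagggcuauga
mmu-miR-107-5p: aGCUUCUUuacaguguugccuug
mmu-miR-103-2-5p: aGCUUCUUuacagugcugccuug
mmu-miR-103-1-5p: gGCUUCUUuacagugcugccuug
The 3p forms share 1 seed and differ at 1 base of 23, C22G, counted from the 5′ end with the miR-107 base first, and Pank2 and Pank3 give the same 3p sequence. The 5p forms also share a seed among themselves. None of the 3 microRNA genes has a row in the table, so the values below are those of the host transcripts alone.

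Across the 9 genes, 8 had a higher mean log2 level in FSH livers and 1, Vnn1, a lower one. The median log2 fold change was 0.40, beside 0.02 over all 12733 genes tested. By the limma fit over all genes, 6 of the 9 had an adjusted p under 0.05, all in the higher direction, where 10.6% of all genes passed in either direction, 6.19% as higher and 4.41% as lower. Nudt7 alone was also past an absolute log2 fold change of 1, as were 1.83% of all genes. In 4 of the 9, Ppcs, Coasy, Nudt7 and Nudt19, every FSH liver was above every saline liver, where 6.67% of all genes had groups that did not overlap in either direction. The genes were chosen with this contrast known, so nothing is read from these counts. Without FSH 1 the fit called 3 of the 9 and 6.31% of all genes, and without FSH 2 it called 3 of the 9 and 8.14% of all genes.

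**Figure D1:**
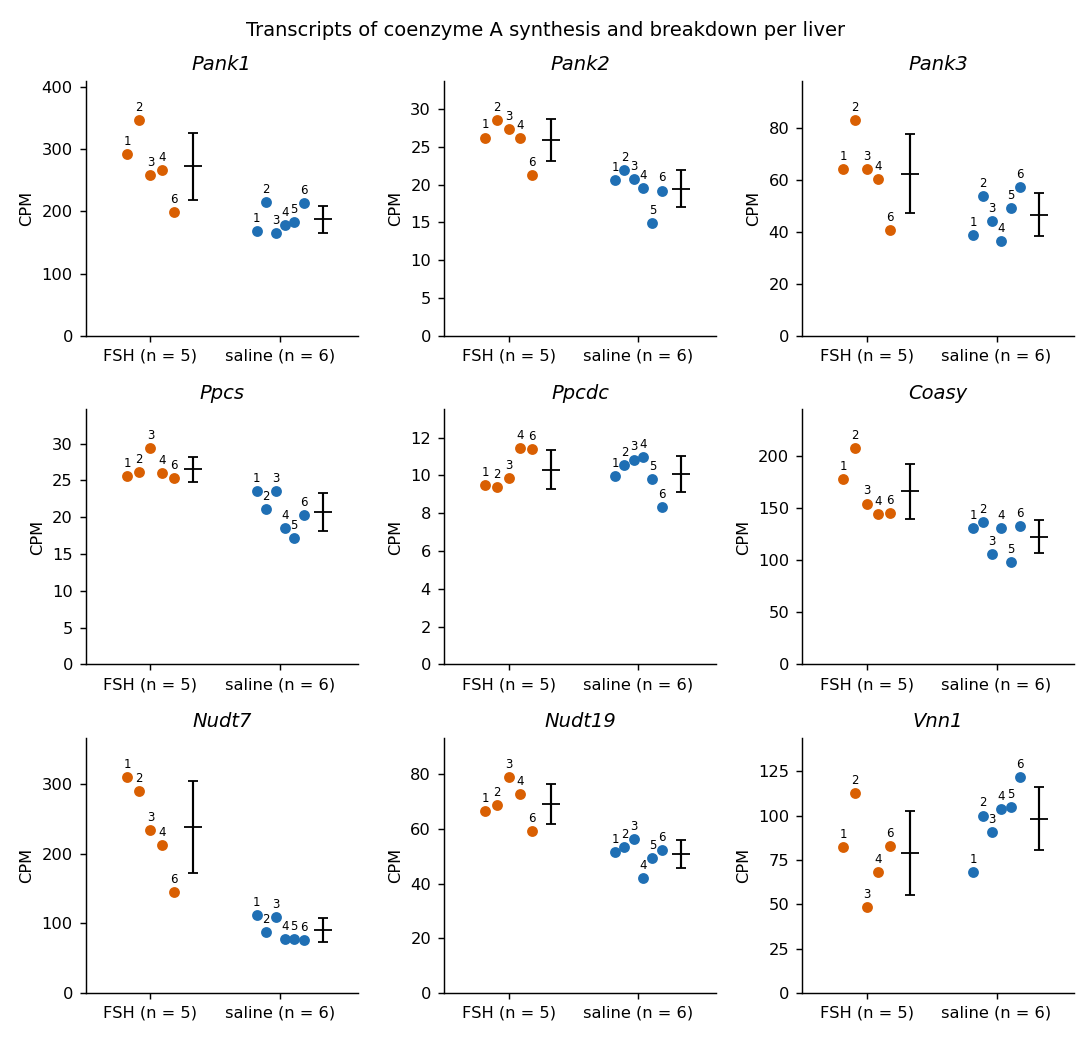
CPM of each of the 9 transcripts, with 1 point per liver labelled by its replicate number, FSH livers in orange and saline livers in blue, and black bars for the mean ± SD; every axis starts at 0. The points of the groups do not overlap for Ppcs, Coasy, Nudt7 and Nudt19, Ppcdc lies at 9.37 to 11.4 CPM in FSH livers and 8.33 to 10.96 CPM in saline livers, and the Vnn1 mean is lower in FSH livers.

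Pank1 was the kinase with the most reads. Its level was 293, 347, 258, 266 and 199 CPM in FSH livers 1, 2, 3, 4 and 6, and it ran from 165 through a median of 180 to 215 CPM in saline livers. FSH livers 1 to 4 lay above every saline liver, while FSH 6 lay among them. The means were 273 ± 53.7 (SD, n = 5) and 187 ± 22.0 CPM (SD, n = 6), a ratio of 1.46 and a log2 fold change of 0.53 (SE 0.13).

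Pank2, whose human counterpart is known for a neurodegenerative disorder with brain iron, was far less abundant. It stood at 26.2, 28.5, 27.3, 26.1 and 21.3 CPM in FSH livers 1, 2, 3, 4 and 6, against 14.9 to 21.9 CPM with a median of 20.1 CPM in saline livers. Again FSH 6 was the one FSH liver inside the saline range, and the log2 fold change was 0.40 (SE 0.11). The last exon region of Pank2 overlaps Rnf24 on the opposite strand, which reached at most 10.3 CPM, and Gm14233 on its own strand, which reached at most 1.16 CPM. Whether the counting used strand is not given in the sources used here, so reads from the overlap cannot be assigned with certainty.

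Pank3 repeated this arrangement with a wider spread. FSH livers 1, 2, 3, 4 and 6 had 64.2, 83.3, 64.2, 60.5 and 40.7 CPM, and saline livers ran from 36.6 through a median of 46.9 to 57.4 CPM. FSH 2 was the highest liver of all and FSH 6 lay below the saline median. The log2 fold change was 0.40 (SE 0.16). Divided by annotated exon length, Pank1 made up 70.5% ± 1.15 (SD, n = 5) of the sum of the 3 kinases in FSH livers and 68.7% ± 1.47 (SD, n = 6) in saline livers. The ranges of this share overlapped, at 68.6 to 71.6% and 66.2 to 70.6%, with Pank2 at 11.4% and 12.1% and Pank3 at 18.01% and 19.2% of the sum in the means. Pank4, a related gene whose product is a phosphatase rather than an active kinase, did not pass the test (-0.17 on the log2 scale, limma adjusted p = 0.401).

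Ppcs, which makes phosphopantothenoylcysteine, varied least among FSH livers of the 9 genes, with a coefficient of variation of 6.17%. It stood at 25.6, 26.1, 29.3, 26.0 and 25.3 CPM in FSH livers 1, 2, 3, 4 and 6 and at 17.2 to 23.5 CPM with a median of 20.7 CPM in saline livers. The groups did not overlap, though the gap between them was smaller than the spread inside the saline group. The log2 fold change was 0.35 (SE 0.10).

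Ppcdc, the decarboxylase that follows, was the one gene of the pathway with nearly equal means. FSH livers 1, 2, 3, 4 and 6 had 9.49, 9.37, 9.85, 11.4 and 11.4 CPM, and saline livers 8.33 to 10.96 CPM with a median of 10.3 CPM. The log2 fold change was 0.03 (SE 0.10), and 88.9% of all tested genes had a larger absolute one. Its sign turned when single livers were left out, with values from -0.02 to 0.06. At 106 to 189 reads per library, this transcript had the lowest counts of the 9.

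Coasy, the enzyme of the final steps, had the highest mean per exon length of the list in FSH livers. It stood at 178, 207, 154, 144 and 145 CPM in FSH livers 1, 2, 3, 4 and 6, and ran from 98.7 through a median of 131 to 136 CPM in saline livers. Every FSH liver was above every saline liver, with FSH 4 and the highest saline liver, saline 2, closest to each other. The log2 fold change was 0.43 (SE 0.12). Synthesis as a whole held 5 transcripts with log2 fold changes between 0.35 and 0.53 and Ppcdc at 0.03.

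Nudt7, the peroxisomal hydrolase that acts on CoA and its acyl esters, differed most. It stood at 311, 291, 235, 213 and 145 CPM in FSH livers 1, 2, 3, 4 and 6. Saline livers had 76.8 to 113 CPM with a median of 82.9 CPM. The groups did not overlap, and FSH 6 was again the FSH liver nearest to the saline group. The means of 239 ± 66.1 (SD, n = 5) and 90.4 ± 16.6 CPM (SD, n = 6) gave a ratio of 2.64 and a log2 fold change of 1.37 (SE 0.18). Of the 12733 genes tested, 101 (0.793%) had a larger absolute log2 fold change.

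Nudt19, the second peroxisomal CoA hydrolase, known mainly from kidney, was also higher in FSH livers but by less. It stood at 66.6, 68.6, 79.1, 72.8 and 59.2 CPM in FSH livers 1, 2, 3, 4 and 6, against 41.9 to 56.5 CPM with a median of 51.9 CPM in saline livers. The groups did not overlap, and the log2 fold change was 0.44 (SE 0.10). An antisense transcript, B230322F03Rik, overlaps its first exon region but reached at most 0.301 CPM. The share of Nudt7 in the sum of both hydrolases did not overlap between the groups. Per exon length Nudt7 made up 69.0, 66.9, 58.7, 58.3 and 53.8% of the pair in FSH livers 1, 2, 3, 4 and 6 and 41.2 to 51.1% in saline livers. With the longest annotated transcript as the length, the shares were 61.3 to 75.2% and 48.8 to 58.7%, again without overlap.

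Set against synthesis, the CPM ratio of Nudt7 to Pank1 was 0.868 ± 0.128 (SD, n = 5) in FSH livers and 0.494 ± 0.136 (SD, n = 6) in saline livers, with no overlap between the lowest FSH value of 0.725 and the highest saline value of 0.667. The ratio of Nudt7 to Coasy was 1.43 ± 0.274 (SD, n = 5) against 0.750 ± 0.179 (SD, n = 6). Here the groups met, since FSH 6 at 0.995 lay below saline 3 at 1.03. These ratios restate the values that chose the genes and are transcript ratios of genes with unequal length, not measures of enzyme activity or of CoA.

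**Figure D2:**
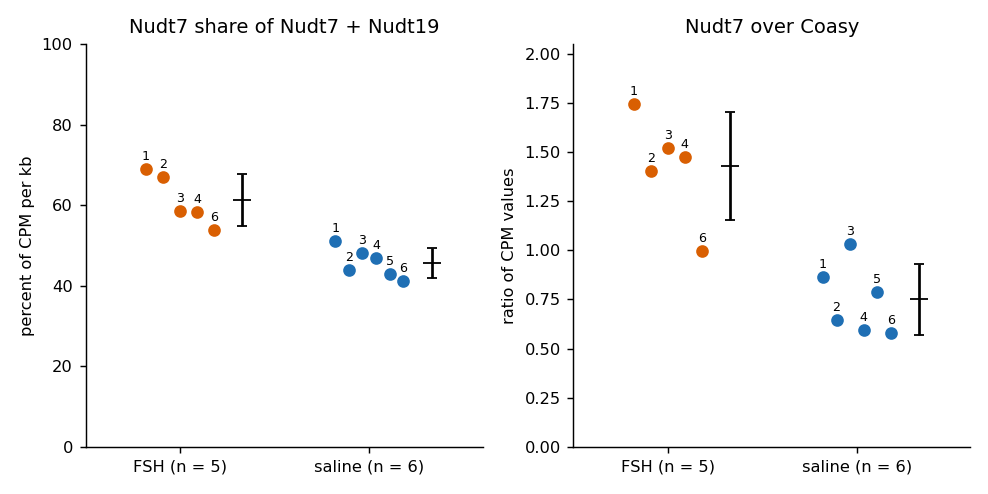
Left, Nudt7 as a percentage of the summed CPM per kb of Nudt7 and Nudt19; right, the ratio of Nudt7 CPM to Coasy CPM; points are livers labelled by replicate number and bars are mean ± SD. The share runs from 53.8 to 69.0% in FSH livers and from 41.2 to 51.1% in saline livers, whereas the ratio to Coasy of FSH 6 (0.995) falls below that of saline 3 (1.03).

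Vnn1, a GPI-anchored enzyme on the cell surface that is known as a target of the nuclear receptor PPAR alpha, pointed the other way. It stood at 82.4, 113, 48.5, 68.3 and 83.1 CPM in FSH livers 1, 2, 3, 4 and 6, and ran from 68.2 through a median of 102 to 122 CPM in saline livers. The ranges overlapped broadly, with FSH 2 above 5 of the 6 saline livers. The log2 fold change was -0.35 (SE 0.18), a ratio of means of 0.803, and it was -0.18 without FSH 3 and -0.49 without FSH 2. Its relative Vnn3, also a pantetheinase gene, did not pass the test, with means of 160 ± 13.6 (SD, n = 5) and 153 ± 14.1 CPM (SD, n = 6), that is 0.07 on the log2 scale (limma adjusted p = 0.651).

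Levels of different genes were compared as CPM per kilobase of annotated exon. In saline livers the mean levels ran in the order Coasy (42.8 CPM per kb), Vnn1 (40.7), Pank1 (22.6), Nudt19 (19.0), Nudt7 (16.1), Ppcs (12.9), Pank3 (6.34), Pank2 (3.97) and Ppcdc (1.74). The first 2 places rested on saline 1, since Vnn1 was above Coasy in 3 of the 6 saline livers and the means were 43.2 for Vnn1 and 42.2 for Coasy without that liver. Neighbours overlapped from liver to liver for Coasy and Vnn1, for Pank1 and Nudt19, for Nudt19 and Nudt7, and for Nudt7 and Ppcs. The step from Vnn1 to Pank1 and each step from Ppcs down to Ppcdc was clear of overlap. In FSH livers Nudt7 stood in place 2 with 42.5 CPM per kb, against place 5 in saline livers, behind Coasy with 57.9 CPM per kb. Pank1 (32.98) and Vnn1 (32.7) followed close together, then Nudt19 (25.8), Ppcs (16.5), Pank3 (8.48), Pank2 (5.27) and Ppcdc (1.78 CPM per kb). With the longest transcript as the length, Nudt7 took place 3 in saline livers and remained in place 2 in FSH livers.

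**Figure D3:**
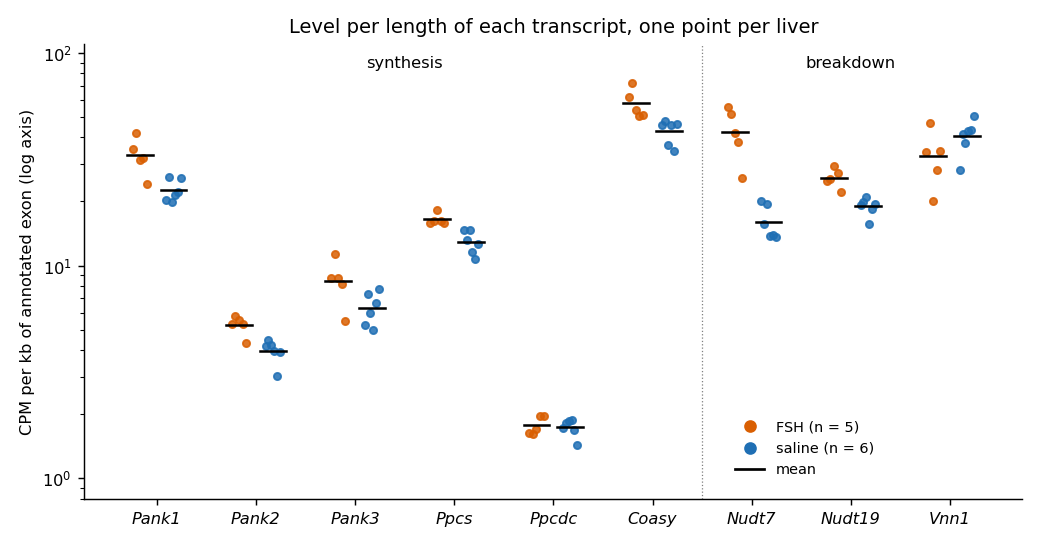
CPM per kb of annotated exon on a log axis for each gene, with 1 point per liver, FSH in orange and saline in blue, and black lines at the group means. Coasy has the highest mean in FSH livers at 57.9 CPM per kb and lies beside Vnn1 in saline livers (42.8 and 40.7, an order that turns without saline 1), Ppcdc is lowest at 1.78 and 1.74, and the FSH and saline points of Nudt7 lie the furthest apart.

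Livers of 1 group also differed among themselves, and those differences do not enter the choice of the genes. After the group mean of log2(CPM + 0.5) was taken from each value, all 36 pairs of the 9 genes were correlated over the 11 livers and tested by an exact permutation of livers within their groups (86400 arrangements, two-sided). Pank1 and Pank3 moved most closely, with r = 0.91 and rho = 0.88 (exact permutation p = 0.00222 and 0.0034), but the p adjusted over the 36 pairs was 0.08 for r and 0.0989 for rho. Without FSH 2 and FSH 6, the livers farthest out in Pank1, r was 0.77, and it was 0.81 over the 6 saline livers alone. Pank3 and Ppcdc ran against each other, with r = -0.68 and rho = -0.75 (exact permutation p = 0.0186 and 0.00824, adjusted p = 0.149 and 0.0989), and r was -0.55 without FSH 6 and saline 4. Ppcs and Nudt19 moved together, with r = 0.66 and rho = 0.78 (exact permutation p = 0.0233 and 0.00579, adjusted p = 0.149 and 0.0989), and r was 0.73 without saline 3 and saline 5. No pair of the 36 passed after adjustment and 9 had an unadjusted p under 0.05 for r, so none of these relations passed the test over the family of pairs. The median r was 0.369, with 23 pairs above 0 and 13 below.

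**Figure D4:**
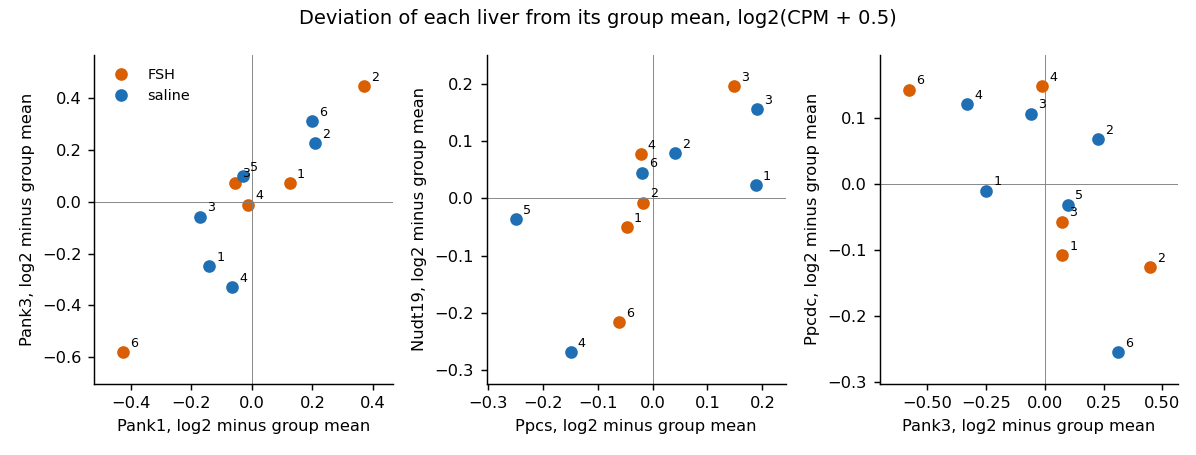
Deviation of each liver from its group mean in log2(CPM + 0.5) for Pank1 and Pank3, Ppcs and Nudt19, and Pank3 and Ppcdc, with FSH livers in orange, saline livers in blue and replicate numbers beside the points. FSH 2 and FSH 6 form the ends of the Pank1 and Pank3 cloud (r = 0.91 over 11 livers, 0.77 without both).

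The genes nearest in pattern were sought by the same centred Pearson r over 11 livers among 11920 genes with a symbol, and the first 2 are named as a description. They were Cenpq and Zfp931 for Pank1 (both r = 0.96), Cmas and Ddhd2 for Pank2 (both 0.95), Suz12 and Cse1l for Pank3 (both 0.97), Ywhag (0.96) and Gfpt1 (0.95) for Ppcs, and Cebpb and Clpp for Ppcdc (both 0.89). For Coasy they were Tom1l2 (0.95) and Mpdu1 (0.94), for Nudt7 Polg2 (0.94) and Tmed5 (0.93), for Nudt19 Hnrnpf (0.97) and Pgm2 (0.96), and for Vnn1 Rnf123 (0.95) and H6pd (0.94). At r above 0.9 Pank3 had 110 genes, Pank1 54 and Ppcdc none. All points share the same libraries and their composition, and only 3 of these 18 genes were also among the first 2 by Spearman's rho.

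Upstream sequence was read from RefSeq windows of 250 bases before to 50 after a start, which were found for 7 of the 9 genes in 11 entries, with none for Coasy and Vnn1. Both strands were searched for a direct repeat of AGGTCA spaced by 1 base with at most 2 mismatches, the type of element bound by PPAR with RXR. It was found in 1 of the 11 windows, that of Ppcdc, and in 3.86% of all 32851 mouse windows. The Ppcdc match had 2 mismatches and lay 27 to 39 bases after the start, not before it. The E-box CACGTG was in none of the 11 windows and in 7.15% of all. The D-box TTATGTAA with at most 1 mismatch was in the Ppcdc window and in 16.1% of all. A search for the GC box GGGCGG, which was added after the sequences had been read, found it in 6 of the 11 windows, from Nudt7, Pank2, Pank3 and Ppcdc, and in 35.7% of all. The windows of Nudt7 overlap and hold the same boxes, so the count includes the same sites again. The stretch before the annotated Nudt7 gene is printed because this gene differed most between the groups, with the 3 GC boxes in capitals, which read CCGCCC on this strand.
Nudt7, chr8:114133324-114133556, GRCm38.p6, plus strand: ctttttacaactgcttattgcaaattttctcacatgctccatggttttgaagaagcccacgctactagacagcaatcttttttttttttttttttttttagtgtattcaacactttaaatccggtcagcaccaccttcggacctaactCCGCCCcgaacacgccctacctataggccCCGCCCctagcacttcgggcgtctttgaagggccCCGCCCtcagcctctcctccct
A match is a string of letters and not a measured binding site, and no binding was measured here.

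Other genes that handle CoA were taken from 3 lists, and their differences were tested by limma with p-values adjusted over all 12733 genes. These lists were written with earlier results of these livers known. Of the 44 genes tested, 9 rose and 1 fell with FSH, 34 did not pass, and the median log2 fold change was 0.03, beside 0.02 over all genes and 10.6% of all genes called.

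In the list of CoA transport and minor enzymes 16 of 17 genes had a row and all 16 were tested, of which 2 rose and none fell. Slc5a6, the sodium-dependent transporter that brings pantothenate and biotin into cells, stood at 8.14, 11.9, 6.97, 8.27 and 6.40 CPM in FSH livers 1, 2, 3, 4 and 6 and at 4.79 to 5.77 CPM in saline livers, with no overlap (log2 fold change 0.59, SE 0.14, limma adjusted p = 0.0148). Abcd3, which carries acyl-CoA into peroxisomes, stood at 551 to 1184 CPM in FSH livers and 404 to 572 CPM in saline livers, where FSH 6 lay inside the saline range (log2 fold change 0.70, SE 0.17, limma adjusted p = 0.0148). The peroxisomal CoA carrier Slc25a17 differed by 0.38 and the mitochondrial carrier Slc25a42 by -0.17 on the log2 scale, and neither passed (limma adjusted p = 0.0884 and 0.592). Without FSH 6, 5 genes of this list were called, where the share called over all genes was also higher, at 13% against 10.6%.

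Acyl-CoA synthetases, which spend CoA to activate acids, held 16 tested genes out of 22, the other 6 being under the filter. Of these 5 rose, none fell and 11 did not pass. Acss2, which makes acetyl-CoA in the cytosol, had 390 to 1085 CPM in FSH livers and 94.4 to 291 CPM in saline livers (log2 fold change 2.19, SE 0.27, limma adjusted p = 0.000153). Aacs, the acetoacetyl-CoA synthetase of lipid synthesis, had 92.1 to 243 and 31.6 to 72.1 CPM (log2 fold change 1.98, SE 0.25, limma adjusted p = 0.00017). Neither gene's groups overlapped. The long-chain synthetases Acsl3, Acsl4 and Acsl5 rose by 1.07, 0.73 and 0.79 on the log2 scale (limma adjusted p = 0.021, 0.0134 and 0.00611), with overlapping groups for each. Acsl3 no longer passed without FSH 1 (adjusted p = 0.0634) or without FSH 3 (0.057). Acsl1, the main long-chain synthetase of liver, differed by 0.03 on the log2 scale and did not pass (limma adjusted p = 0.927).

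Among 12 acyltransferases and related enzymes that release CoA, all tested, 2 rose, 1 fell and 9 did not pass. Acat2, the cytosolic thiolase at the entry to sterol synthesis, had 124 to 289 CPM in FSH livers and 59.8 to 106 CPM in saline livers (log2 fold change 1.30, limma adjusted p = 0.000708). Citrate synthase, Cs, rose by 0.49 on the log2 scale (limma adjusted p = 0.0094). Crot, the peroxisomal carnitine octanoyltransferase, had 270 to 377 CPM in FSH livers and 563 to 968 CPM in saline livers, with no overlap (log2 fold change -1.23, SE 0.13, limma adjusted p = 4.1e-05). Of this list 5 genes were called without FSH 6 and also by edgeR and by DESeq2 with all livers, fits that called 13%, 11.3% and 13.7% of all genes. Nudt7 and Crot, whose products both act in peroxisomes, differed in opposite directions, at 1.37 and -1.23.

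**Figure D5:**
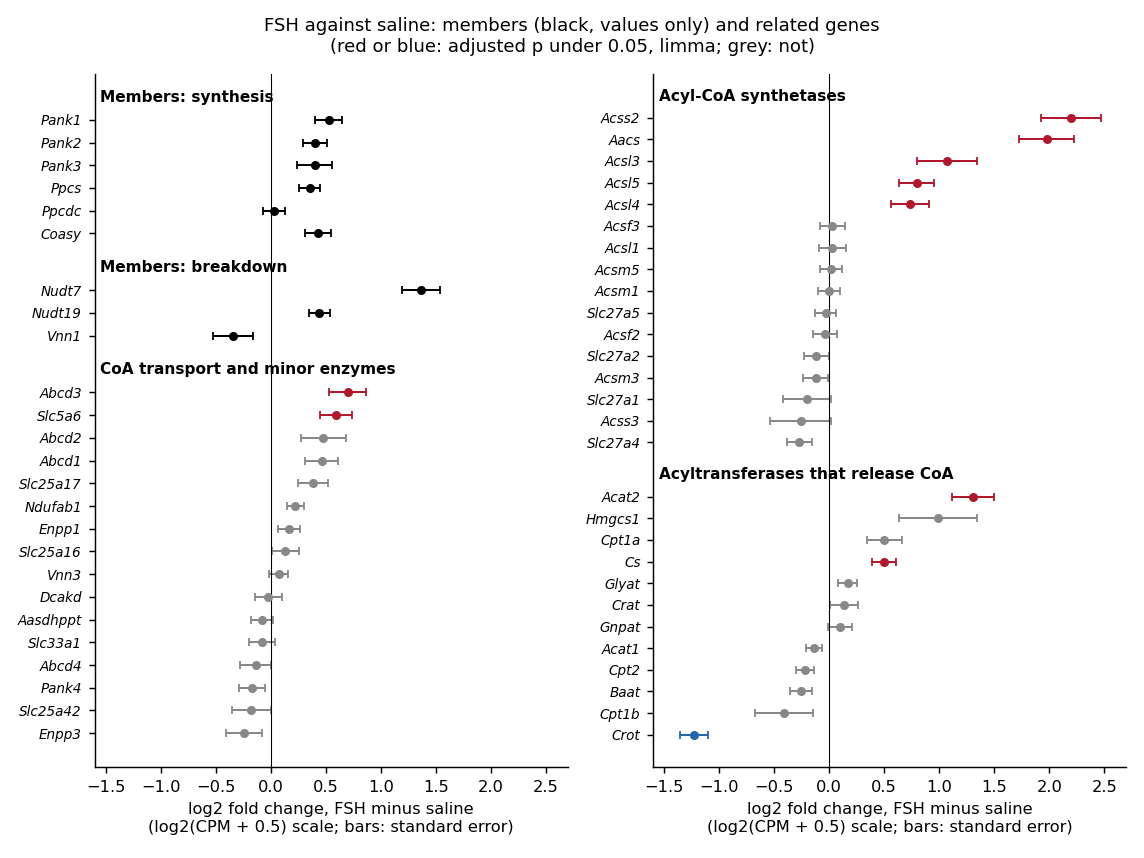
Log2 fold change of FSH against saline with its standard error for the 9 genes (black, values only) and for the 44 tested genes of the other CoA lists, red where higher and blue where lower at an adjusted p under 0.05 by limma, grey otherwise. Nudt7 (1.37) stands apart from the other 8 genes, Acss2 (2.19) and Aacs (1.98) lead the synthetases and Crot (-1.23) is the lowest value shown.

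Other features of the libraries moved with the groups. The clock genes Dbp, Per3 and Nr1d1 rose with FSH, by 4.02, 2.61 and 1.64 on the log2 scale, and Arntl fell by 2.33 on the log2 scale (limma adjusted p = 1.15e-07, 6.91e-06, 0.00231 and 1.14e-05), all without overlap. Npas2 was at 0 in 4 FSH livers and at 0.1005 CPM in FSH 1, under the level of 3 reads, and at 4.64 to 7.14 CPM in saline livers. Inside the FSH group, Dbp stood at 121, 116, 56.5, 79.6 and 42.6 CPM in livers 1, 2, 3, 4 and 6, so that FSH 6 was the lowest for Dbp as it was for Nudt7, Pank1, Pank2, Pank3, Ppcs and Nudt19. The lowest FSH liver was FSH 4 for Coasy, FSH 3 for Vnn1 and FSH 2 for Ppcdc. The part of the clock genes in the values of the 9 genes was not tested. With no time of collection given, a difference in it between the groups cannot be told apart from FSH.

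Hepatocyte markers (6 listed) summed to 92267 to 112695 CPM in FSH livers and 85333 to 114653 CPM in saline livers and were detected throughout, and of them Hnf4a fell (log2 fold change -0.44, limma adjusted p = 0.0369). Of the other cell types, 1 of 4 cholangiocyte markers rose, Krt7 (0.69, adjusted p = 0.00731), at sums of 7.97 to 11.1 and 8.37 to 10.3 CPM, and 1 of 4 liver endothelial markers fell, Lyve1 (-0.63, adjusted p = 0.0121), at 99.9 to 148 and 114 to 139 CPM. The 5 Kupffer cell markers (88.3 to 246 and 146 to 287 CPM), 4 stellate cell markers (184 to 245 and 208 to 274 CPM), 4 T and B cell markers (2.88 to 6.27 and 3.27 to 7.96 CPM) and 4 erythroid markers (305 to 530 and 268 to 685 CPM) had none called. All 4 adipocyte markers were under the level of 3 reads in the mean, with sums of at most 0.129 CPM, as were 4 of the 5 pancreatic acinar markers, Cpa1, Prss2, Pnlip and Amy2b. The part of cell composition in the values of the 9 genes was not tested, and in whole liver fewer cells of a type and less RNA per cell cannot be told apart.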

How the data were processed

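RNA from whole liver, digested with papain per the labels, was made into libraries with the NEB Next Ultra kit and sequenced on a HiSeq2500 in paired reads of 100 bp, with 1 library per mouse. The submitters' processing notes name FastQC 0.11.2, Trim Galore 0.3.3, cutadapt, STAR, RSEM and the build mm10; the counting settings are not given in the sources used here. The deposited values are CPM, scaled by the authors to 1000000 reads per library. All values (100%) were whole multiples of 1 read to within 0.01 read, whereas RSEM gives estimated counts that need not be whole, so which counter made the table is unclear. The multiples gave 10801891 to 19909327 reads per library (median 13558078), and 3 reads were 0.151 to 0.278 CPM. This level covers counting error alone. Closest replicates differed by a mean chi-square of 11.4 per gene, so no library was counted as a copy.

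Gene symbols were matched for 35555 of 36788 identifiers, and lengths and positions come from the GENCODE M21 annotation. The main test was limma 3.58.1 (R 4.3.3) on log2(CPM + 0.5) with an intensity trend, after a filter on the mean over all libraries (0.5 CPM or more), and Benjamini-Hochberg adjustment over all 12733; a gene was called at an adjusted p under 0.05. Fold changes are on this log2 scale, which understates those of low genes. In all, 788 genes were called higher and 562 lower, and 3196 had an unadjusted p under 0.05. The fit was tested on simulated data. Alternatives were other pseudocounts, filters and scalings, edgeR 4.0.16, DESeq2 1.42.0 and voom on the recovered reads, a replicate block and the omission of each library. Correlations and their permutations were computed with numpy 2.4.6, and ranks for Spearman's rho with scipy 1.17.1.

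The 9 genes and all lists were chosen with earlier results of these data known. Named are the 9 genes, the called genes of the 3 CoA lists (at most 8 per list), the 2 genes nearest in pattern to each, and 5 clock genes; the other genes of these lists given with values (Pank4, Vnn3, Slc25a17, Slc25a42, Acsl1) and the marker genes called were named after their values were seen. A gene of the acyltransferase list is not reported here and is in none of its counts. Protein sequences were not used here.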

Additional observations from a re-analysis of the deposited data

Results flagged for a closer look

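In 48 groups of values searched for a liver far from the others of its group by Dixon's ratio, 2 were found, and chance alone gives about 1 in 20. Ppcs stood at 29.3 CPM in FSH 3 against 25.3 to 26.1 CPM in the other FSH livers, so that its highest FSH value came from a liver that was also the highest for Nudt19, but not for Pank1, Coasy or Nudt7. Npas2 stood at 0.1005 CPM in FSH 1 and at 0 in the other 4 FSH livers, a difference below the level of 3 reads.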

How the results depend on the processing

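The count of genes called, 1350, ran from 1013 without the filter to 1743 with DESeq2 and from 804 (without FSH 1) to 1659 (without FSH 6) when single livers were left out; fewer livers enter each such fit, and the cause of the difference between livers was not tested. It was 1435 with edgeR. Under TMM scaling 733 were higher and 663 lower. Nudt7 kept its direction in all 22 alternatives, with log2 fold changes of 1.26 to 1.53, as did the other members except Ppcdc, which turned to -0.02 at its lowest. Vnn1 ran from -0.49 to -0.18. Of the CoA-related genes 9 to 15 were called, against 10; Acsl3 lost its call in 2 of 22 alternatives. DESeq2 called 4 transport genes, and 13.7% of all genes. By Spearman's rho 3 of the 18 genes nearest in pattern remained; the cause was not tested. The order by level per length kept 6 of 9 places with the longest transcript and 7 of 9 without saline 1, when Vnn1 took the first place from Coasy; it kept all 9 when any other saline liver was left out.

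Shared replicate numbers gave no clear sign of pairing: same-numbered livers correlated at 0.0651, 0.356, 0.0193, 0.137 and -0.0662, and 1 of 5 correlated best with its own number. These values cannot settle whether same-numbered mice shared a cage, batch or day. With the number as a replicate block 1210 genes (9.5%) were called, with 4 of the 9 members and 12 CoA-related genes among them, and each of the 10 list genes called without the block was also called with it. Saline 5 has no FSH liver of its number, so it adds nothing to the contrast of this fit. The fit without saline 5 and without the block also called 4 of the 9, and 9.71% of all genes.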
